A study of Mus musculus with 50 samples.

Results

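The transcription factors that make and keep the neuron types of the dorsal root ganglion were followed over 25 inbred mouse strains. The 9 genes chosen were Pou4f1, Pou4f2, Pou4f3, Isl1, Runx1, Runx3, Etv1, Shox2 and Maf, and every probe set annotated to one of them was taken. This gave 24 of 45037 probe sets, for 8 of the 9 genes. Pou4f2, a relative of Pou4f1, carried no probe set in the annotation used and was not analysed here. Pou4f1 and Isl1 are made by nearly all sensory neurons, Runx1 by the small unmyelinated neurons that sense pain, heat and itch, Runx3 and Etv1 by the large neurons that sense muscle stretch, and Shox2 and Maf by neurons that sense touch.

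Pou4f1 and Isl1 act together in newborn sensory neurons: they switch off genes of the dividing precursors and switch on genes of sensory neurons. The RUNX factors then divide the neurons. Runx1 keeps the ion channels and itch receptors of non-peptidergic pain neurons and holds back genes of the peptidergic ones, and Runx3 keeps the neurotrophin receptor Ntrk3 and turns off Ntrk2 in the stretch sensing neurons.

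Each strain was represented by 1 male and 1 female array, so that 25 male and 25 female arrays were compared. Each array held RNA pooled from 3 naive wild-type mice that were 2 months old, and by their labels the groups differed in strain and sex alone. An Affymetrix array reads a transcript with sets of short probes, and levels are given here as log2(intensity + 1). A level above 4 in at least 2 arrays was required for a test, which 22205 probe sets met. A pool has no replicate of the same sex. The p-values for strain and sex therefore rest on the difference between a strain's pools, pooled over all strains. The mean difference between the sexes is taken out of it. Those for agreement and for relations between genes rest on the 25 strains. In bulk tissue, fewer cells of a type and less RNA per cell cannot be told apart.

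The 10 genes taken as general neuron markers had an average between 12.02 and 12.55 in every array. The 8 sensory neuron genes, among them Avil and Scn10a, had an average between 9.67 and 10.65. Markers of other cells varied more between arrays, with muscle genes averaging 4.12 to 9.57 and neutrophil and marrow genes 4.34 to 9.22. All 25 female arrays had a higher lowest value (1.726 to 1.744) than any male array (1.629 to 1.655). The sources used here do not say whether the sexes were normalized separately. If they were, sex cannot be told apart from the set in which an array was normalized. The Gapdh signal at the transcript's 3′ end exceeded the 5′ signal the most on the male BTBT T+tf/J array (by 0.60) and the female P/J array (by 0.34). Xist, which female cells make, was at 9.43 or above in every female array and above 4 in 7 of 25 male arrays, with 8.97 in PL/J and 7.78 in the next. The female SM/J array held the Y chromosome gene Eif2s3y at 6.82, where the other female arrays held at most 3.46.

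Of the 24 probe sets, 18 passed the filter on level. The strain means of 10 of these 18 differed (limma moderated F test, adjusted p under 0.05), against 24.7% of all probe sets tested. The factors and the gene lists below were chosen with earlier results of these data known. Shares set beside those of all probe sets or genes, here and below, are therefore descriptions only. Several of the 18 probe sets also belong to the same gene. Counting 1 leading probe set per gene, the one with the highest mean, strain differed for 5 of 8 genes: Pou4f3, Isl1, Runx1, Shox2 and Maf. Pou4f3 passed the filter through 7 arrays, all male, so that its calls, here and below, are a description only. The median range of strain means was 1.13 log2 units over the 18 probe sets and 0.87 over all tested. The 6 probe sets that failed the filter were 3 for Runx1 and 1 each for Runx3, Etv1 and Maf. Of these, 5 never rose above 4 in any array, and the Etv1 probe set 1445314_at did so in 1 array, the male FVB/NJ, at 4.04. The highest values of the other 5 lay between 2.77 and 3.82.

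**Figure D1:**
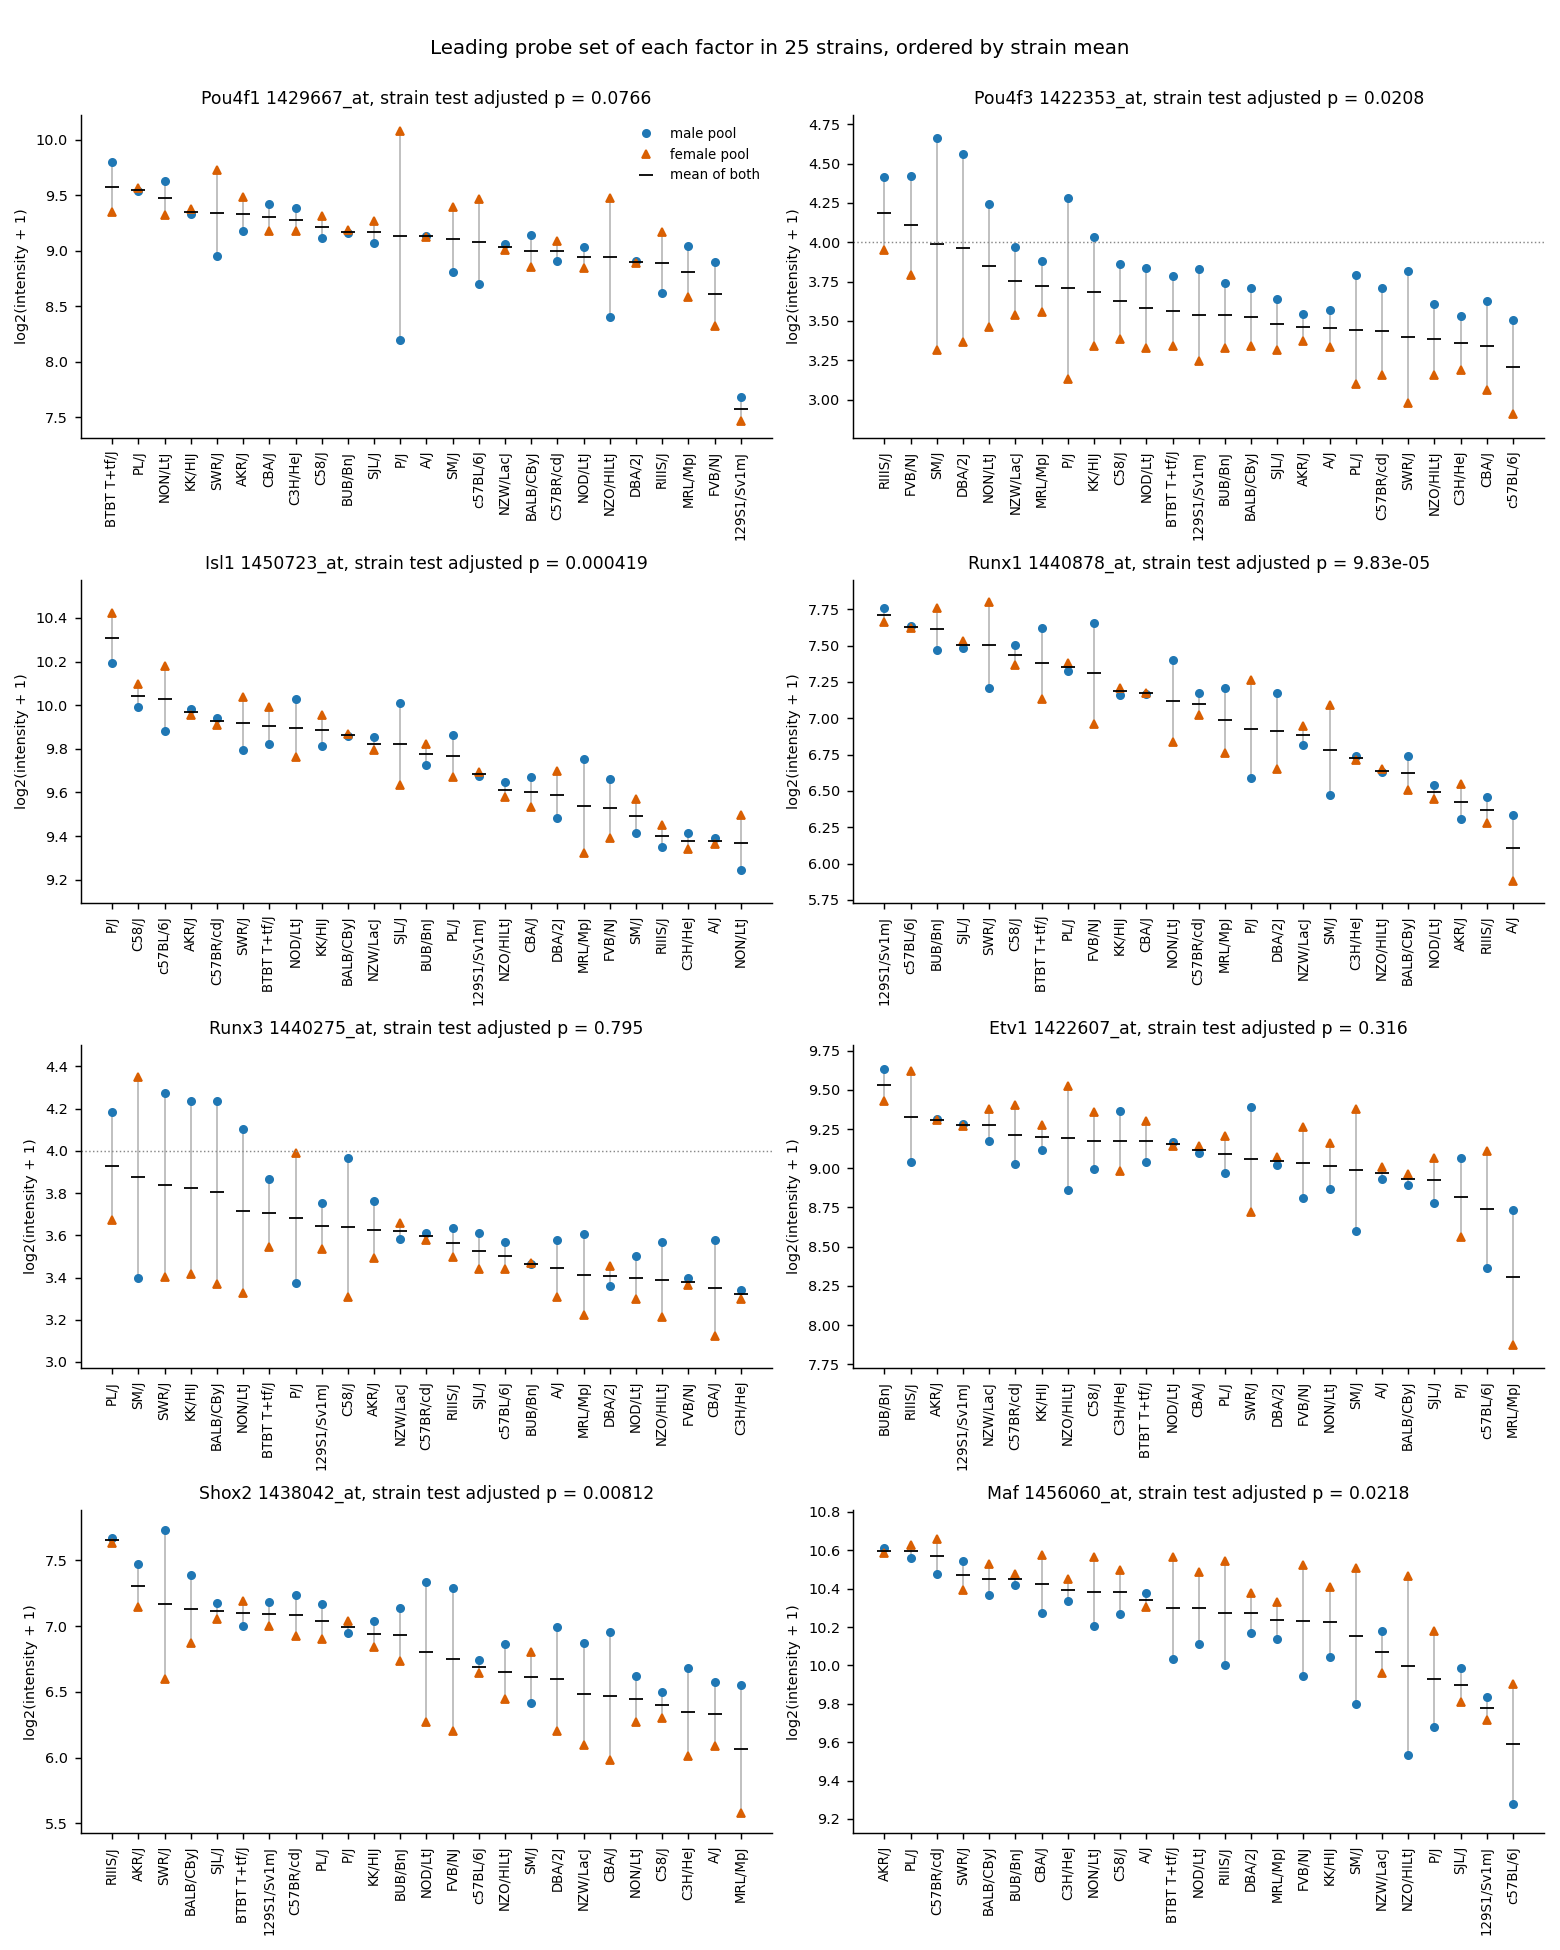
Level (log2 of intensity + 1) of the leading probe set of each of 8 genes in the male array (circle) and the female array (triangle) of 25 strains, with the strain mean as a dash, strains ordered by that mean; the dotted line marks 4. The 129S1/Sv1mJ strain lies below the others for Pou4f1, and the Runx3 and Pou4f3 values lie around or below the line.

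Pou4f1, the POU homeodomain factor that marks sensory neurons, set 129S1/Sv1mJ below the other strains with its leading probe set and not with its second. With the leading probe set, 1429667_at, the male arrays ran from 7.68 (129S1/Sv1mJ) through a median of 9.06 to 9.80 (BTBT T+tf/J). The female arrays ran from 7.46 (129S1/Sv1mJ) through a median of 9.18 to 10.07 (P/J). Both arrays of 129S1/Sv1mJ lay below all the others. The strain mean of 129S1/Sv1mJ was 7.57 and that of the next strain, FVB/NJ, was 8.61, a gap of 1.04 with a standard error of 0.37 for a difference between strains. Against the mean of the other 24 strains, 129S1/Sv1mJ was lower by 1.57 (SE 0.27; limma adjusted p = 0.000402 over all probe sets and strains). Such a single-strain call, which also required a difference of 1 log2 unit, was made in some strain for 12.7% of probe sets.

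The rest of the strain order was not resolved for Pou4f1. From BTBT T+tf/J at the top, 21 strains lay within 2 standard errors, and the test over all strains gave adjusted p = 0.0766 (limma). The P/J arrays were far apart, at 8.20 in the male and 10.07 in the female. Without the male P/J array the adjusted p over all strains was 0.00224, without the female P/J array 0.00308, and without the 2 arrays of highest Gapdh imbalance 0.00422 (limma).

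A second Pou4f1 probe set, 1429668_at, gave a different order. It placed 129S1/Sv1mJ highest (7.98 in males, 8.14 in females, mean 8.06) and c57BL/6J lowest (7.18). The range was 0.88 (limma adjusted p = 0.078). The strain means of the 2 probe sets did not correlate (r = −0.08, permutation p = 0.733; rho = 0.21, permutation p = 0.31; r = 0.42 without 129S1/Sv1mJ and FVB/NJ). The low level of 129S1/Sv1mJ thus belongs to one probe set and not to the other.

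Pou4f3, a POU factor best known from hair cells of the ear, stayed near the background. It was above 4 in 7 of 50 arrays, all male, with probe set 1422353_at. The male arrays ran from 3.51 (c57BL/6J) through a median of 3.82 to 4.66 (SM/J). The female arrays ran from 2.91 (c57BL/6J) through a median of 3.33 to 3.95 (RIIIS/J). The male value exceeded the female one in 25 of 25 strains. The strain means spanned 0.98, from 3.21 in c57BL/6J to 4.18 in RIIIS/J (limma adjusted p = 0.0208). The call was lost without the female RIIIS/J array and with a pseudocount of 16, where the range was 0.45 (adjusted p = 0.0723).

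Isl1, the LIM homeodomain factor that works beside Pou4f1, differed between strains over a narrow range that both pools repeated. Probe set 1450723_at ran in males from 9.24 (NON/LtJ) through a median of 9.79 to 10.19 (P/J). In females it ran from 9.32 (MRL/MpJ) through a median of 9.70 to 10.42 (P/J). Both arrays of P/J were the highest of their sex, and the female one had a high Gapdh imbalance. Over arrays, the r of this probe set with the Gapdh imbalance was 0.06 in males and 0.705 in females. Without the 2 arrays of highest imbalance it was −0.01 and 0.58. The part of that imbalance in the Isl1 order was not tested. The strain mean was 10.31 in P/J, 10.04 in C58/J and 10.03 in c57BL/6J, and 9.37 in NON/LtJ, 9.38 in A/J and 9.38 in C3H/HeJ. The range of 0.94 had an adjusted p of 0.000419 (limma), with a standard error of 0.15 for a difference between strains. At the low end 9 strains lay within 2 standard errors of NON/LtJ. The second Isl1 probe set, 1422720_at, also placed P/J at the top (9.35), with a range of 0.99 (limma adjusted p = 0.0389). That call was lost in 20 of the 50 fits that left out 1 array, among them the one without the female P/J array (adjusted p = 0.0711).

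Runx1, the factor of non-peptidergic pain neurons, had the lowest adjusted p for strain of the 8 genes. With the leading probe set, 1440878_at, males ran from 6.30 (AKR/J) through a median of 7.18 to 7.76 (129S1/Sv1mJ). Females ran from 5.88 (A/J) through a median of 7.02 to 7.80 (SWR/J). The strain means were 7.71 in 129S1/Sv1mJ, 7.63 in c57BL/6J and 7.61 in BUB/BnJ at the top, and 6.11 in A/J, 6.37 in RIIIS/J and 6.43 in AKR/J at the bottom. The top strain was not separated from 8 others and the bottom strain not from 3 others at 2 standard errors (SE 0.25). Over arrays, the r of this probe set with the Gapdh imbalance was 0.38 in males and 0.54 in females. Without the 2 arrays of highest imbalance it was 0.40 and 0.69. The part of that imbalance in the Runx1 order was not tested. The range of 1.61 had an adjusted p of 9.83e-05 (limma), and the call held in all 50 fits that left out 1 array.

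A second Runx1 probe set, 1422864_at, divided the strains more widely. Males ran from 5.23 (C3H/HeJ) through a median of 7.26 to 8.34 (NZW/LacJ), and females from 4.64 (P/J) through a median of 7.33 to 8.36 (SWR/J). From KK/HIJ (7.95) down to SM/J (6.83) the strain means fell in small steps. The widest step, 0.72, then separated SM/J from NZO/HILtJ, and below it lay NZO/HILtJ, BALB/CByJ, DBA/2J, NOD/LtJ, AKR/J, RIIIS/J, A/J, C3H/HeJ and, lowest, P/J (5.15). The range of 2.80 had an adjusted p of 3.31e-08 (limma). Single-strain calls were made for KK/HIJ (higher by 1.08) and for AKR/J, RIIIS/J, A/J, C3H/HeJ and P/J, which was lower by 1.83 (SE 0.24; limma adjusted p = 7.63e-06). Leaving out the male AKR/J or C3H/HeJ array, the female RIIIS/J or A/J array or either KK/HIJ array ended the call of that strain. The P/J call held in all 50 fits, with a difference of −1.24 without the female P/J array, which had a high Gapdh imbalance. With the leading probe set P/J did not stand apart (−0.12, limma adjusted p = 0.898), nor did KK/HIJ (0.16, limma adjusted p = 0.83). There the differences were −0.63 in AKR/J, −0.69 in RIIIS/J, −0.97 in A/J and −0.32 in C3H/HeJ, none of them called. Their limma adjusted p was 0.0467, 0.0263, 0.00118 and 0.468. In AKR/J, RIIIS/J and A/J only the required size of 1 log2 unit was missed.

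The strain means of the 2 Runx1 probe sets rose and fell together (r = 0.76, permutation p = 2e-05; rho = 0.66, permutation p = 0.00054; r = 0.71 without A/J and RIIIS/J). Across the sexes r was 0.72 and 0.60, so that the relation did not rest on a shared array. The limma adjusted p was 0.024 over all other probe sets tested, and 0.0794 after the mean of the neuron genes was taken out of each array. The third probe set that passed the filter, 1422865_at, did not share the order of the leading one (r = 0.15, permutation p = 0.487; rho = 0.19, permutation p = 0.373; r = 0.04 without A/J and RIIIS/J). Its range of 1.79 was not called (limma adjusted p = 0.309). Its BTBT T+tf/J call (lower by 1.06, limma adjusted p = 0.0472) held in 10 of the 50 fits that left out 1 array and was lost in 39. Its male array, at 4.19, lay 2.41 from the female one, and the difference turned its sign without that array. Without the 2 arrays of highest Gapdh imbalance the difference was 0.09.

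Runx3 was not above background in most arrays. Its probe set 1440275_at was above 4 in 6 of 50 arrays, and the highest value was 4.35, in the female SM/J array. Males ran from 3.34 through a median of 3.60 to 4.27, and females from 3.12 through a median of 3.44 to 4.35. The strain range of 0.61 was not called (limma adjusted p = 0.795), and the second probe set, 1421467_at, never exceeded 3.11. Its strain order therefore carries no measured level.

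Etv1, an ETS factor needed by stretch sensing neurons, was well above background but its strain order was not resolved. All 3 of its probe sets were also annotated to a second gene, Gm5454, so that the signal cannot be assigned to Etv1 alone. With 1422607_at the males ran from 8.37 (c57BL/6J) through a median of 9.03 to 9.64 (BUB/BnJ). The females ran from 7.88 (MRL/MpJ) through a median of 9.21 to 9.62 (RIIIS/J). The strain means ran from 9.53 in BUB/BnJ to 8.31 in MRL/MpJ, with a range of 1.23 (limma adjusted p = 0.316). With 1450684_at the range was 1.04 (limma adjusted p = 0.208). Both probe sets placed MRL/MpJ lowest.

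Shox2, a homeodomain factor that directs neurons toward touch at the expense of other types, differed between strains with its leading probe set. With 1438042_at the males ran from 6.42 (SM/J) through a median of 7.001 to 7.73 (SWR/J). The females ran from 5.58 (MRL/MpJ) through a median of 6.64 to 7.63 (RIIIS/J). RIIIS/J was highest with close pools (7.67 in males, 7.63 in females, mean 7.65), followed by AKR/J (7.31), and MRL/MpJ was lowest (6.07). The range of 1.59 had an adjusted p of 0.00812 (limma) with a standard error of 0.28, and the call held in all 50 fits that left out 1 array. Within 2 standard errors of RIIIS/J lay 6 strains, and within 2 of MRL/MpJ lay 8. The second probe set, 1420559_a_at, stayed between 3.87 and 4.92, close to background, and its range of 0.52 was not called (limma adjusted p = 0.704).

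Maf, a bZIP factor of touch neurons that macrophages also make, was high with its leading probe set and gave a different strain order with each of several probe sets. With 1456060_at the males ran from 9.28 (c57BL/6J) through a median of 10.17 to 10.61 (AKR/J). The females ran from 9.71 (129S1/Sv1mJ) through a median of 10.48 to 10.66 (C57BR/cdJ). The strain means were lowest in c57BL/6J (9.59) and 129S1/Sv1mJ (9.78) and highest in AKR/J (10.60), with a range of 1.01 (limma adjusted p = 0.0218). At the top 17 strains lay within 2 standard errors of AKR/J (SE 0.21). Leaving out c57BL/6J's male array ended the call, with a range of 0.82.

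The probe set 1437473_at also placed c57BL/6J (3.85) and 129S1/Sv1mJ (3.90) at the bottom, and FVB/NJ (6.05), BUB/BnJ (5.98) and MRL/MpJ (5.97) at the top. Its range was 2.20 (limma adjusted p = 0.000112), and all 5 of these strains were called against the other 24. In each of the 2 low strains the male array was above 4 (4.05 and 4.20) and the female one was not, so that how far they lie below the others was not measured. Each of the 5 calls was lost without the female array of its own strain, and that of MRL/MpJ in 3 further fits. With 1435828_at the high strains were NON/LtJ (7.48), SJL/J (7.42) and NZO/HILtJ (7.41), a group set apart by a step of 0.44 from the next strain, and the low ones were A/J (5.64) and c57BL/6J (5.71). That range was 1.84 (limma adjusted p = 1.33e-05). Here NON/LtJ was higher than the other 24 by 1.07 and SJL/J by 1.01, and each call was lost without that strain's female array, the SJL/J call in 11 of 50 fits in all. With 1447849_s_at the range was 0.65 (limma adjusted p = 0.0483), a call lost in 38 of 50 fits that left out 1 array, and with 1444073_at it was 1.79 and not called (limma adjusted p = 0.52).

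In all, 15 single-strain calls were made for these factors, 6 higher and 9 lower. Over all probe sets tested, 0.497% of the pairs of a probe set and a strain were called higher and 0.644% lower. The 15 calls fell on 5 probe sets: 1 of Pou4f1, 2 of Runx1 and 2 of Maf. With a pseudocount of 16, 5 of the 15 remained.

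Whether a strain order belongs to the gene was followed further by setting the probe sets of 1 gene side by side. Of 17 such pairs, 3 were called: the pair of Runx1 above, 1 pair of Etv1 and 1 pair of Maf. The Etv1 probe sets 1422607_at and 1450684_at rose and fell together (r = 0.78, permutation p = 1e-05, the smallest that the permutations can give; rho = 0.77, permutation p = 1e-05; r = 0.68 without MRL/MpJ and BUB/BnJ; limma adjusted p = 0.0379). That relation was within arrays: r was 0.70 in males and 0.80 in females, but 0.33 and 0.01 between one probe set in one sex and the other probe set in the other. The Maf probe sets 1447849_s_at and 1435828_at rose and fell together both within and across the sexes (r = 0.85, permutation p = 2e-05; rho = 0.87, permutation p = 1e-05; r = 0.79 without NON/LtJ and SJL/J; limma adjusted p = 0.000559), with 0.48 and 0.79 across. No leading probe set of any other gene (0.0%) was called with 1447849_s_at. Neither followed the leading Maf probe set (r = 0.17 and 0.10). The Isl1 pair had r = 0.69 (permutation p = 0.00015; rho = 0.70, permutation p = 0.00013; r = 0.54 without P/J and NON/LtJ), which was not called over all probe sets tested (limma adjusted p = 0.193).

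**Figure D2:**
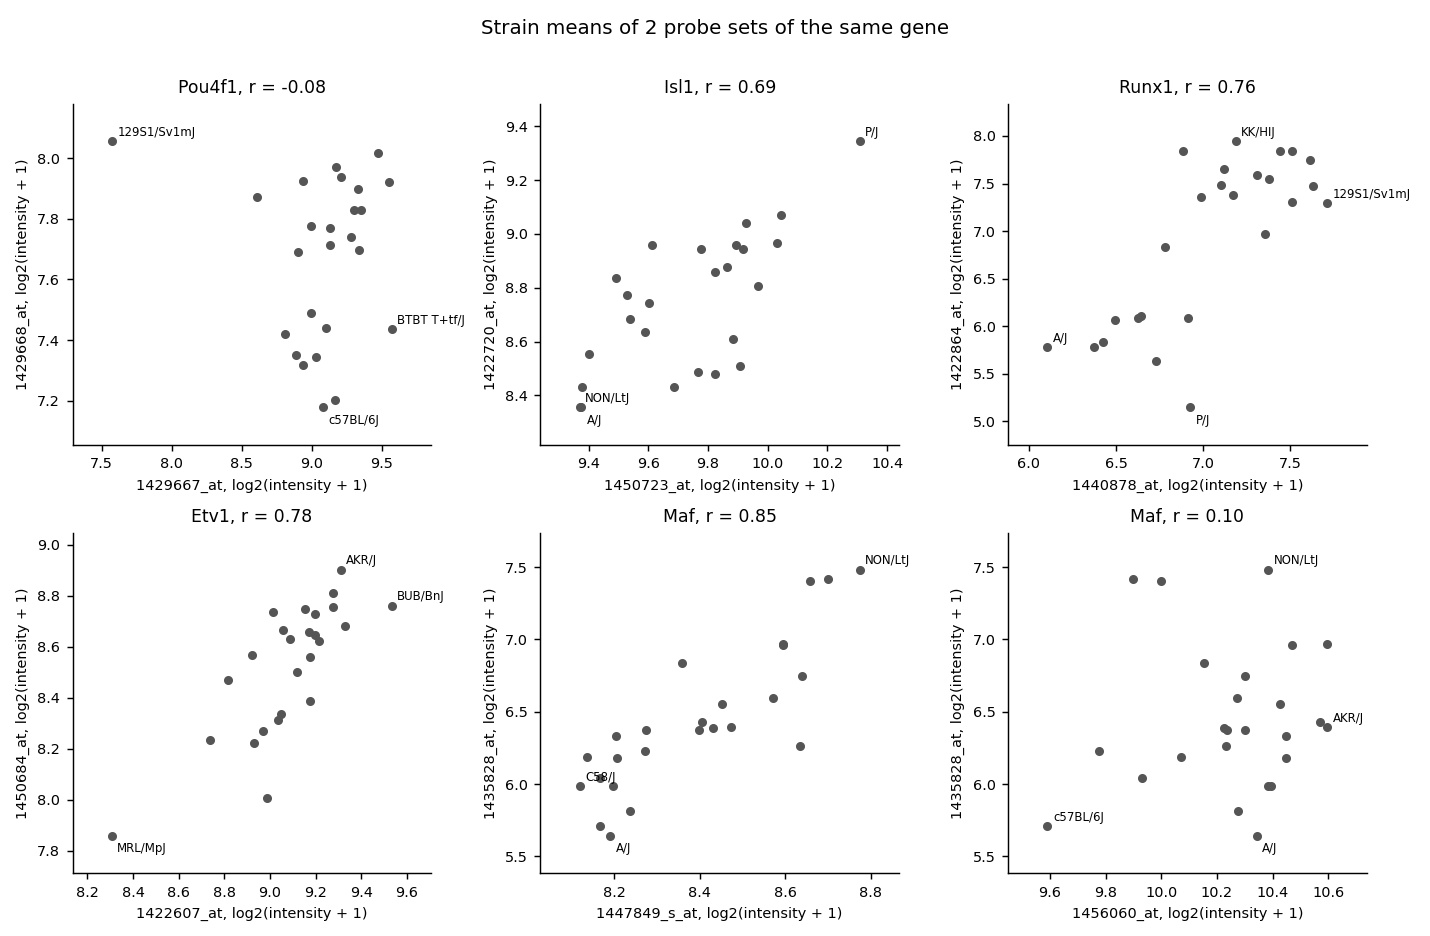
Strain means (log2 of intensity + 1, 25 strains) of one probe set against another probe set of the same gene, for Pou4f1, Isl1, Runx1, Etv1 and 2 pairs of Maf, with Pearson's r in each panel. The points rise together for Isl1, Runx1, Etv1 and the Maf pair at r = 0.85, and not for Pou4f1 (−0.08) or the Maf pair at 0.10.

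The male and the female array of a strain are separate pools of mice, and their agreement over strains was tested for each factor. Of the 18 probe sets, 7 agreed (permutation test, adjusted p under 0.05), against 17.1% of all probe sets tested, and the median r was 0.47 against 0.24. Since the factors were chosen with earlier results of these data known, these shares are a description. All 7, with that of Pou4f3 counted, were also among the 10 called for strain. Both tests rest on the same arrays and on the difference between a strain's pools, so that the overlap is not separate support. The second Runx1 probe set, 1422864_at, agreed best (r = 0.85, permutation p = 1e-05, adjusted 0.000382; rho = 0.78, permutation p = 2e-05; r = 0.86 without C3H/HeJ and AKR/J). The leading Runx1 probe set gave r = 0.71 (permutation p = 7e-05, adjusted 0.00148; rho = 0.69, permutation p = 0.0002; r = 0.64 without AKR/J and A/J). The third, 1422865_at, did not agree (r = 0.13, permutation p = 0.493, adjusted 0.693; rho = 0.21, permutation p = 0.307; r = 0.185 without BTBT T+tf/J and NZW/LacJ). Of the 3 Runx1 probe sets tested, 2 thus kept their strain order between the sexes.

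Isl1 gave r = 0.72 (permutation p = 7e-05, adjusted 0.00148; rho = 0.70, permutation p = 0.00019; r = 0.71 without NON/LtJ and RIIIS/J). The 2 Maf probe sets that agreed were 1435828_at (r = 0.76, permutation p = 1e-05, adjusted 0.000382; rho = 0.73, permutation p = 5e-05; r = 0.77 without SJL/J and RIIIS/J) and 1437473_at (r = 0.71, permutation p = 7e-05, adjusted 0.00148; rho = 0.80, permutation p = 1e-05; r = 0.76 without BTBT T+tf/J and MRL/MpJ). The leading Maf probe set did not reach the threshold (r = 0.49, permutation p = 0.0125, adjusted 0.0653; rho = 0.46, permutation p = 0.0222; r = 0.46 without c57BL/6J and NZO/HILtJ). Of the other 2, 1447849_s_at was close to it (r = 0.465, permutation p = 0.0194, adjusted 0.089; rho = 0.45, permutation p = 0.0259; r = 0.52 without FVB/NJ and DBA/2J). The tested probe set of lowest signal, 1444073_at, showed no agreement (r = −0.02, permutation p = 0.933, adjusted 0.968; rho = −0.04, permutation p = 0.845; r = −0.02 without c57BL/6J and BTBT T+tf/J).

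Shox2 agreed more loosely (r = 0.55, permutation p = 0.00505, adjusted 0.0344; rho = 0.51, permutation p = 0.0108; r = 0.50 without SWR/J and RIIIS/J, adjusted 0.101). The call was lost without AKR/J, RIIIS/J, C3H/HeJ, MRL/MpJ or A/J. Pou4f3 passed as well (r = 0.52, permutation p = 0.00733, adjusted 0.0449; rho = 0.52, permutation p = 0.00909; r = 0.66 without SM/J and DBA/2J), and lost the call in 15 of 25 fits that left out 1 strain. The strain orders of these 2 genes are held only loosely by separate pools.

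The remaining leading probe sets showed no agreement that passed the test. Pou4f1 gave r = 0.33 (permutation p = 0.104, adjusted 0.272; rho = 0.14, permutation p = 0.505; r = 0.12 without 129S1/Sv1mJ and P/J). It was −0.16 without 129S1/Sv1mJ and 0.56 without P/J. Runx3 gave r = −0.17 (permutation p = 0.417; rho = 0.06, permutation p = 0.766; r = −0.14 without SWR/J and BALB/CByJ). Etv1 gave r = 0.14 (permutation p = 0.478; rho = 0.13, permutation p = 0.543; r = 0.08 without c57BL/6J and BUB/BnJ).

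**Figure D3:**
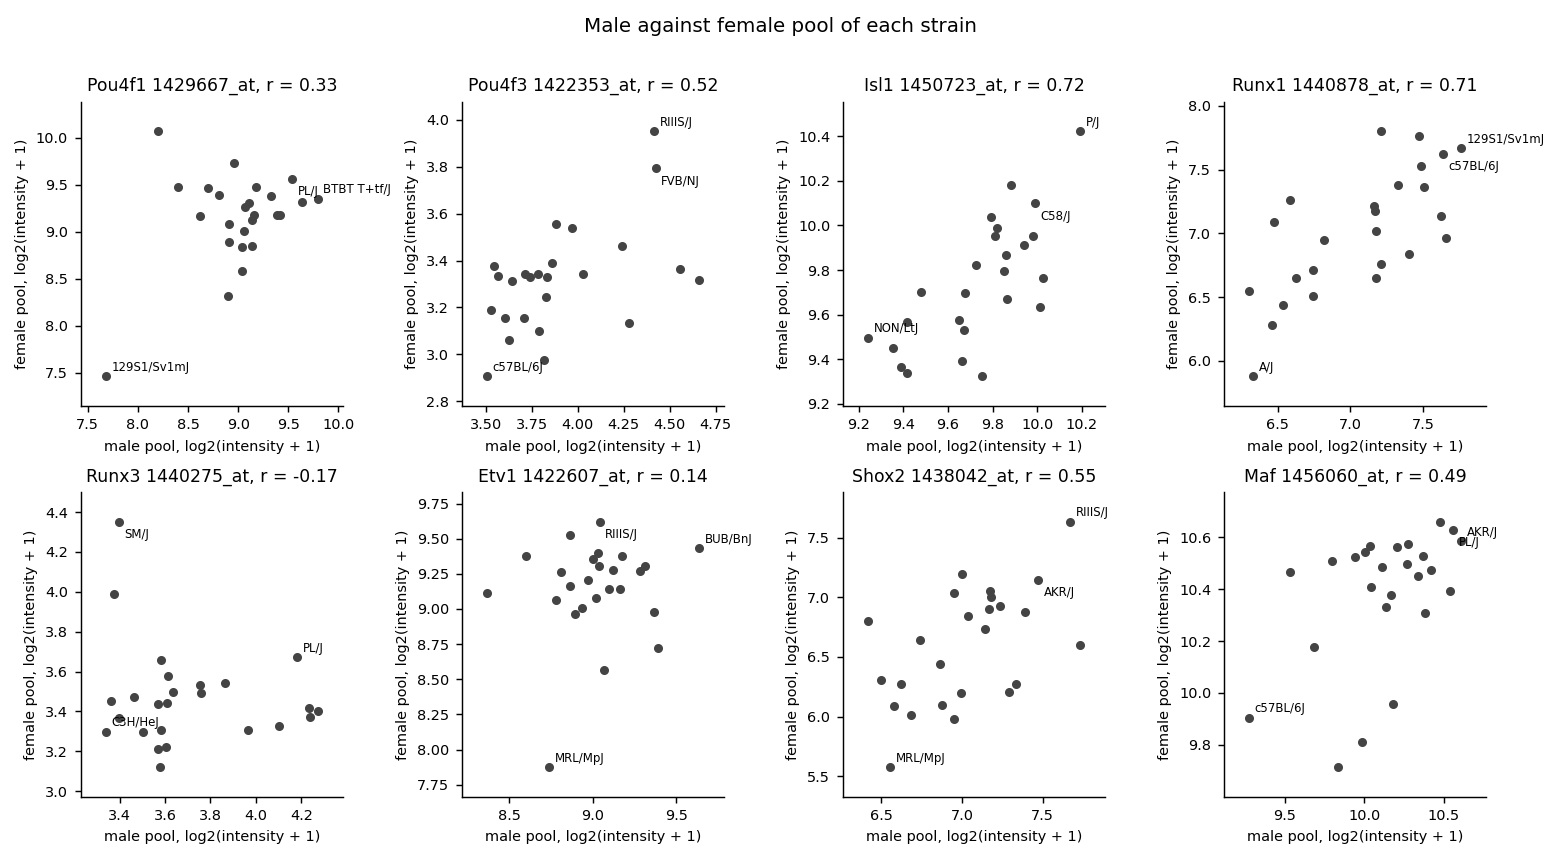
Male against female level (log2 of intensity + 1) of the leading probe set of each of 8 genes, 1 point for each of 25 strains, with Pearson's r in each panel. Isl1 (0.72) and Runx1 (0.71) lie closest to a line, and Runx3 (−0.17) and Etv1 (0.14) show none.

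The factors were next set beside the genes of the neuron types they specify. A gene followed a factor when its strain means depended on those of the factor (limma, adjusted p under 0.05 over all other probe sets tested). Genes were then counted by their leading probe sets, 11204 for each factor. Among 41 sensory neuron genes, 326 pairs with the 8 leading probe sets were examined and 0 were called. At an unadjusted limma p under 0.05, 41 pairs (12.6%) passed. Over all genes that share was 12.3% for Pou4f1, 9.59% for Pou4f3, 13.0% for Isl1, 10.4% for Runx1, 9.36% for Runx3, 8.21% for Etv1, 11.7% for Shox2 and 18.5% for Maf.

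Runx1 was set against 13 genes known to need it in non-peptidergic neurons, such as the itch receptor Mrgpra3, the channel Trpa1 and the enzyme Th. Of these 13, 9 differed between strains themselves (limma, against 26.1% of all genes), Mrgpra3 with a range of 5.43. That share is a description, since the list was chosen with earlier results of these data known. The r of the 13 genes with Runx1 ran from −0.15 to 0.51 with a median of 0.20, where all genes had a median of 0.04. The highest was Gfra2, a receptor of the growth factor neurturin (r = 0.51, limma adjusted p = 0.275). With the second Runx1 probe set none of the 13 passed an unadjusted p of 0.05 and the median was 0.09. With the third, 1422865_at, whose strain order the sexes did not share, 5 of the 13 passed unadjusted (38.5%, against 9.55% of all genes), the median was 0.35 and the highest 0.54. With that probe set 3 of 5 neutrophil and marrow genes also passed unadjusted, with a median of −0.39, and their part was not tested. No gene of the 13 was called with any of the 3, for which 0.0179%, 0.0% and 0.00892% of all genes were called.

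The other genes closest to Runx1 in the lists were factors. Zfp521 had r = 0.62 (permutation p = 0.00112; rho = 0.62, permutation p = 0.00128; r = 0.50 without A/J and RIIIS/J; limma adjusted p = 0.208). Tlx3, a factor that Runx1 neurons need, had r = 0.59 (permutation p = 0.00177; rho = 0.59, permutation p = 0.00253; r = 0.49 without A/J and RIIIS/J; limma adjusted p = 0.219). Among macrophage genes, Mrc1 had r = −0.61 (permutation p = 0.00129; rho = −0.59, permutation p = 0.00224; r = −0.60 without A/J and RIIIS/J; limma adjusted p = 0.208). The 9 macrophage genes had a median r of −0.25 with Runx1 and 2 passed unadjusted, their average ran from 4.65 to 6.80 over the arrays, and their part in the Runx1 order was not tested. Lymphocytes also make RUNX factors; of 8 of their markers on the array 5, among them Cd3e and Cd79a, were not above 4 in 2 arrays.

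Shox2 was set against genes of large neurons. Of 6 stretch neuron genes 5 passed unadjusted and 0 were called. They were Ntrk3 (0.49), Etv1 (0.43), Nxph1 (0.42), the calcium buffer Pvalb (0.40) and Runx3 (0.42), whose own strain order carries no measured level. Of 10 touch neuron genes 4 passed unadjusted and 0 were called. They were the sodium channel Scn1a (r = 0.66, permutation p = 0.00033; rho = 0.63, permutation p = 0.00113; r = 0.60 without RIIIS/J and MRL/MpJ; limma adjusted p = 0.105), the neurofilament Nefh (0.57), Ntrk3 (0.49) and Ntrk2, which ran the other way (−0.49). Ntrk2 and Etv1 rested in part on RIIIS/J and MRL/MpJ, without which they were −0.26 and 0.11. Markers of several other cell types had a median r below 0 with Shox2. Of 6 fibroblast genes 3 passed unadjusted (median r −0.34), of 7 satellite glia genes 2 (−0.165), of 4 endothelial genes 1 (−0.28), of 2 red cell genes 1 (−0.37) and of 5 neutrophil and marrow genes 0 (−0.34). Their part in the Shox2 order was not tested. Of the 6 stretch neuron genes 0 differed between strains and of the 10 touch neuron genes 4 did, Nefh among them (limma, against 26.1% of all genes).

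Scn1a was also the closest gene of Isl1 in the touch list (r = 0.56, limma adjusted p = 0.203). For Isl1 the neuronal RNA-binding protein gene Elavl4 was at 0.62 (limma adjusted p = 0.193), and Tubb3 and Tlx3 led the general list at 0.45 and 0.43. Pou4f1 had none of its 8 general sensory neuron genes below an unadjusted p of 0.05, with r between −0.20 and 0.15. Of 5 genes that Pou4f1 and Isl1 repress in embryos, Neurod1, Neurod4, Neurog1 and Neurog2 were not above 4 in 2 arrays. The fifth, Hoxd1, had r = 0.49 with Pou4f3, which lay near background (limma adjusted p = 0.337).

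**Figure D4:**
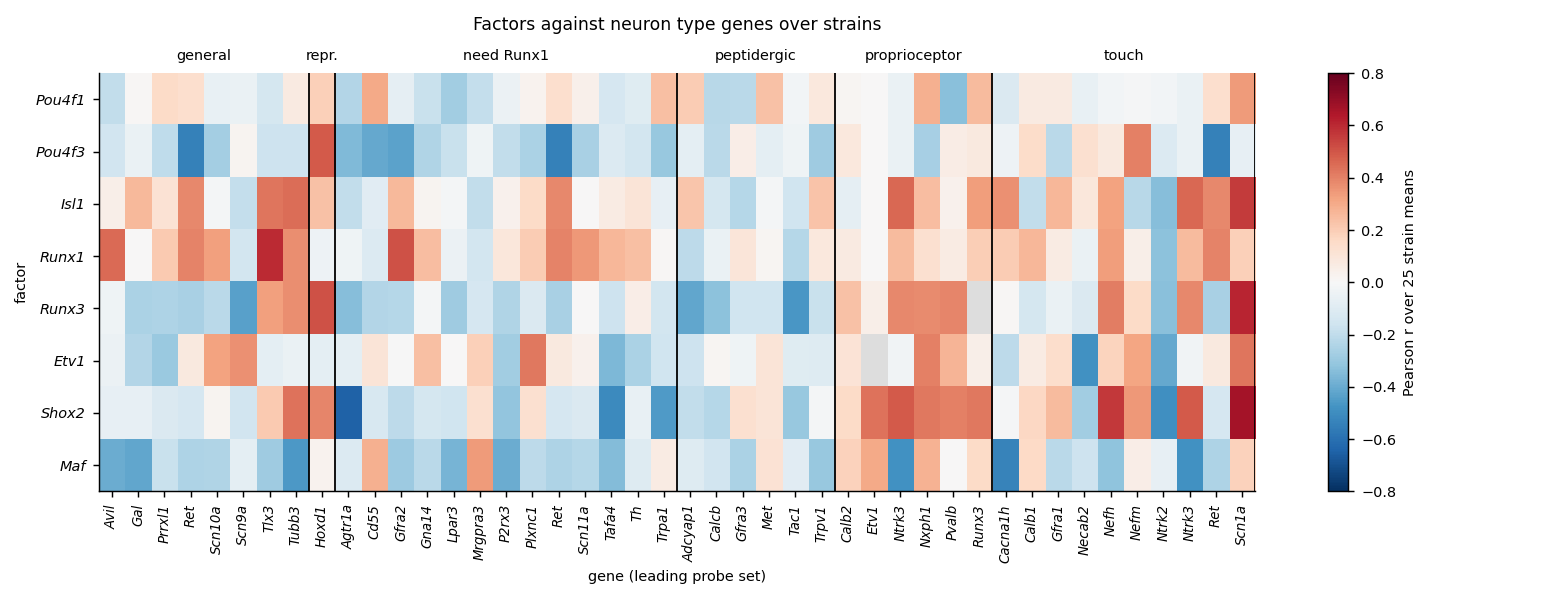
Pearson's r over 25 strain means between the leading probe set of each of 8 factors (rows) and sensory neuron genes grouped by neuron type (columns); grey marks a factor against itself. No pair was called over all probe sets tested, and the Shox2 row is mostly positive over the stretch neuron genes.

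Maf was the factor with calls in the wider lists. Among 29 other sensory neuron factors and partner proteins, 232 pairs were examined and 1 was called. This was Maf with Lmo4, a LIM-only protein (r = 0.63, permutation p = 0.00085; rho = 0.38, permutation p = 0.063; limma adjusted p = 0.0458). It was 0.34 without c57BL/6J and 129S1/Sv1mJ. Among 59 cell type markers, 472 pairs were examined and 1 was called, Maf with Prph, the peripherin filament of small neurons (r = −0.75, permutation p = 2e-05; rho = −0.82, permutation p = 1e-05; r = −0.74 without c57BL/6J and 129S1/Sv1mJ; limma adjusted p = 0.0314). Of the 10 general neuron genes Prph was the only one called. With factor and gene taken from opposite sexes no gene was called with Maf, Lmo4 and Prph included. The 9 macrophage genes had a median r of 0.34 with Maf, 3 passed unadjusted and 0 were called, and their part in the Maf order was not tested. Pou4f1 with Isl2, the sister gene of Isl1, gave the lowest value of Pou4f1 in these lists (r = −0.60, limma adjusted p = 0.166; −0.35 without 129S1/Sv1mJ and FVB/NJ).

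Some of these other factors and partners differed between strains themselves. Of 20 other factors, Hoxd1 (range 2.04), Rora (0.93), Zeb2 (2.68) and Nfia (0.70) were called (limma), that is 20.0% against 26.1% of all genes. Of 10 partner genes, Tle1 (2.09), a corepressor that RUNX factors recruit, Lmo1 (1.25) and Lmo4 (1.33) were called (30.0%). The shares of both lists lay near that of all genes. Of the 6 peptidergic genes 5 were called (83.3%), among them Tac1, Calcb and Trpv1. These lists were not chosen independently of these data.

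Over all genes, 184 pairs with a leading factor were called: 159 for Maf (1.42% of genes), 21 for Pou4f1 (0.187%), 2 for Runx1 (0.0179%) and 2 for Shox2 (0.0179%), with 0 for Pou4f3, Isl1, Runx3 and Etv1. Those 4 had 1074, 1453, 1049 and 920 genes at an unadjusted limma p under 0.05. The number changed with the arrays used. In male arrays alone 1706 pairs were called and in female arrays alone 2271. With the factor taken from the male array and the gene from the female array of each strain 0 were called, and the other way round 8. In these last counts Maf and Pou4f1 had 0 in both directions. Some values were nevertheless of like size within and across the sexes: Runx1 with Ttc9b had r = 0.70 in males, 0.62 in females, and 0.63 and 0.57 across.

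**Figure D5:**
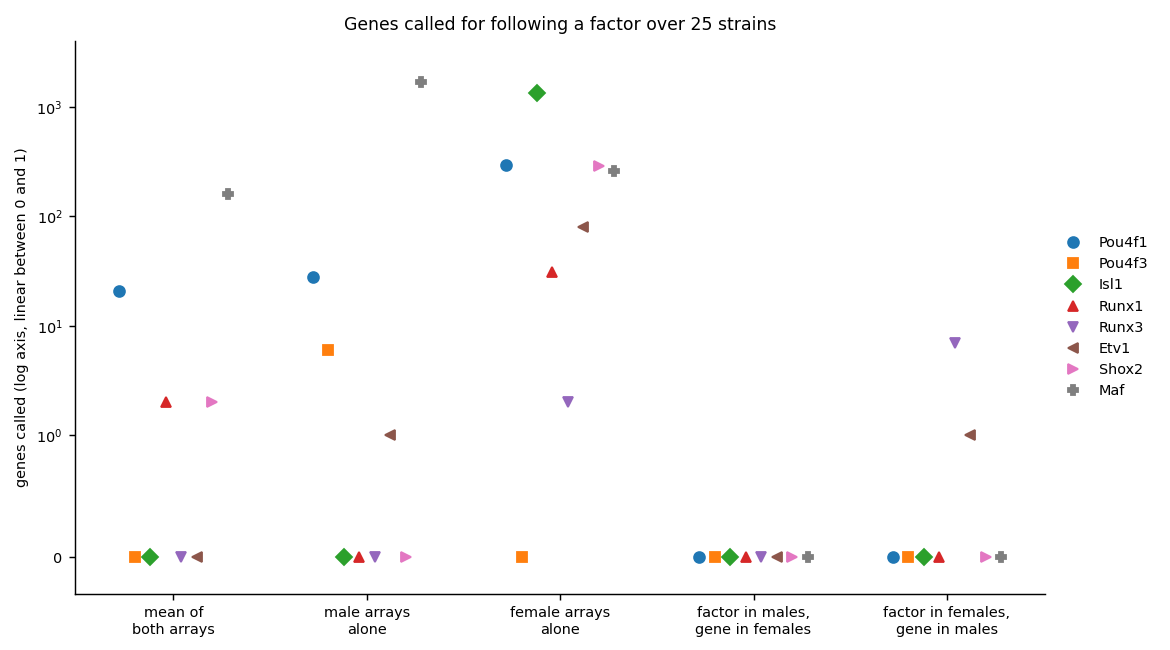
Number of genes called for following each of 8 factors over strains (limma, adjusted p under 0.05; symmetric log axis), from strain means, from male arrays alone, from female arrays alone, and with factor and gene taken from opposite sexes. Maf reaches 1671 in males alone and Isl1 1322 in females alone, while across the sexes 8 pairs were called in all, for Runx3 and Etv1.

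The genes most like each factor were named by r over strain means. For Pou4f1 they were Foxo3 (0.83), Esco1 (0.82) and Kirrel (0.75) at the positive end, all called (limma adjusted p between 0.00212 and 0.0181). Without 129S1/Sv1mJ and FVB/NJ these fell to 0.44, 0.28 and 0.34. With the second Pou4f1 probe set they were −0.22, −0.21 and −0.29. At the negative end were Mrps36 (r = −0.82, permutation p = 2e-05; rho = −0.71, permutation p = 0.00012; r = −0.65 without the same 2 strains; limma adjusted p = 0.0136) and Wdr55 (−0.80, and −0.30 without those strains), which was not called (limma adjusted p = 0.173). After the neuron mean was taken out of each array Mrps36 had r = −0.51 and lost its call (limma adjusted p = 0.252), and Wdr55 had −0.08. The likeness of the positive genes rested on 129S1/Sv1mJ, the lowest strain with the leading probe set. Without that strain alone r was 0.465 for Foxo3, 0.348 for Esco1 and 0.313 for Kirrel, and each call was lost. No other strain left out alone ended these calls.

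For Maf the most alike were Erbin (0.81), Srsf10 (0.81) and Dhx9 (0.80), and the most opposite Barhl2 (−0.80) and Dusp28 (−0.77). All 5 were called (limma adjusted p between 0.0044 and 0.014). Without c57BL/6J and 129S1/Sv1mJ their size stayed between 0.65 and 0.80. After the neuron mean was taken out of each array Barhl2 fell to −0.28 and Dusp28 to −0.38, and both lost their call (limma adjusted p = 0.337 and 0.163), while Erbin, Srsf10 and Dhx9 kept theirs (r = 0.87, 0.86 and 0.87). Across the sexes Erbin had r = 0.42 and 0.55, Srsf10 0.20 and 0.30, Dhx9 0.22 and 0.39, Barhl2 −0.33 and −0.54 and Dusp28 −0.47 and −0.32. The number of genes called for Maf was 3 without c57BL/6J and 366 without BTBT T+tf/J.

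For Shox2 the most alike were Strbp (r = 0.81, permutation p = 1e-05; rho = 0.72, permutation p = 6e-05; r = 0.72 without RIIIS/J and MRL/MpJ) and Galm (r = 0.78, permutation p = 1e-05; rho = 0.74, permutation p = 7e-05; r = 0.70 without the same strains), both with a limma adjusted p of 0.0243. Both calls were lost after the neuron mean was taken out of each array (adjusted p = 0.139), that of Galm without SM/J and PL/J (adjusted p = 0.0733), and they were lost in 6 and 5 of 25 fits that left out 1 strain. Esrrg (0.74), an orphan nuclear receptor gene, followed and was not called. Across the sexes these 3 had r between 0.28 and 0.48. The most opposite were Agtr1a (−0.65), an angiotensin receptor gene of the Runx1 list, and Rpl22l1 (−0.64).

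For Runx1 the most alike were Kcnd3, a subunit of A-type potassium channels (r = 0.77, permutation p = 2e-05; rho = 0.74, permutation p = 4e-05; r = 0.67 without A/J and RIIIS/J), and Ttc9b (r = 0.76, permutation p = 2e-05; rho = 0.70, permutation p = 0.00019; r = 0.68 without the same strains). Both had a limma adjusted p of 0.024. Across the sexes r was 0.46 and 0.64 for Kcnd3 and 0.63 and 0.57 for Ttc9b. After the neuron mean was taken out of each array the adjusted p was 0.0918 and 0.0794, and the calls were lost in 8 and 9 of 25 fits that left out 1 strain. Trmt61b (0.72) followed, and Atl3 (−0.76) and Scyl2 (−0.72) lay at the opposite end, none of them called.

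The promoter windows of Runx1 and of the 2 genes called with it are shown because these are the RUNX gene and the 2 genes whose strain order was most like it. Each is the 250 bases before an annotated transcript start in RefSeq (GRCm38.p6), read 5′ to 3′ on the gene's strand. Runx1 starts at a distal site (chr16:92826075-92826324, minus strand) and a proximal one (chr16:92697330-92697579, minus strand), Kcnd3 lies at chr3:105451640-105451889 (plus strand) and Ttc9b at chr7:27653674-27653923 (plus strand). Capitals mark the RUNX letters TGTGGT or TGCGGT, or their reverse complements ACCACA and ACCGCA.
Runx1 distal: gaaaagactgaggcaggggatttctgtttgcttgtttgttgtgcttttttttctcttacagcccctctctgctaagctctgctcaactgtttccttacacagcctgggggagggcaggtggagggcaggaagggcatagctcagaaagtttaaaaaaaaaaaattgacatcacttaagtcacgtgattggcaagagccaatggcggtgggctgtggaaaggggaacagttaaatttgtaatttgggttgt
Runx1 proximal: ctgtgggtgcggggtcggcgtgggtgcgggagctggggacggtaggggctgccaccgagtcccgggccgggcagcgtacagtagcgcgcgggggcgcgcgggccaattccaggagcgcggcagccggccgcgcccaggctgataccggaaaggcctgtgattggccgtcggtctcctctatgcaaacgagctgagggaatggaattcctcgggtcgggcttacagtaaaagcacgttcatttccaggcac
Kcnd3: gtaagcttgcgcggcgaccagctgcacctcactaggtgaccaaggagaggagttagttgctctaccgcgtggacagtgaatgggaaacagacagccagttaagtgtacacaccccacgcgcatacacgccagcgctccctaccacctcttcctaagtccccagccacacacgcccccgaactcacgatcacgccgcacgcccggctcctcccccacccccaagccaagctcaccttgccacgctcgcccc
Ttc9b: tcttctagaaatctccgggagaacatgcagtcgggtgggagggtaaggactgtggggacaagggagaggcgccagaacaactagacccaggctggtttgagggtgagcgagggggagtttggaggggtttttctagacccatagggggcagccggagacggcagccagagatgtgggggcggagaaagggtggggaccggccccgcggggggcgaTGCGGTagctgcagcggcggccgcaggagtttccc

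The Ttc9b window held 1 such motif, with its first base at −35 from the start, and the other windows held 0. Of 32851 promoter windows of that length, 18.6% held one. A match is a description of letters and does not show a bound site.

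For the 4 factors with no called gene the most alike were as follows. Pou4f3 was closest to Qsox1 (0.72), Snx30 (0.67) and Prcd (0.66), and opposite to Rfx1 (−0.72) and Fam219b (−0.72). Isl1 was closest to Pink1 (0.71), a mitochondrial kinase gene, Tbc1d8 (0.70) and Zmym4 (0.69), and opposite to Pold4 (−0.67) and Commd5 (−0.65). Runx3 was closest to Ppp1cc (0.71), Fam155a (0.70) and Scn4b (0.70), and opposite to Ccdc68 and Itpa (both −0.71). None of these 15 values passed the test over all probe sets, and those of Pou4f3 and Runx3 came from signals near background.

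Etv1 was closest to Zfp106 (0.75), Zdhhc17 (0.71) and Ezh1 (0.70), and opposite to Mif4gd and Lhfp (both −0.73). The Ezh1 value was 0.07 without MRL/MpJ and BUB/BnJ. Zfp106 came nearest to a call (limma adjusted p = 0.0644).

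Among themselves the factors showed no called pair. Of 28 pairs of leading probe sets 0 were called and 3 had an unadjusted limma p under 0.05. The largest was Pou4f1 with Maf (r = 0.48, limma adjusted p = 0.291). Pou4f1 and Isl1, which act on the same genes, had r = 0.15 (permutation p = 0.493; rho = 0.22, permutation p = 0.295; r = 0.12 without 129S1/Sv1mJ and FVB/NJ).

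Sex was tested on all probe sets that passed the filter. The calls are counted here for the 16 of the factors' probe sets that passed it in each sex alone. Pou4f3 and Runx3 passed it through their male arrays (7 of the 7 and 5 of the 6 arrays above 4), so that their higher male values (by 0.58 and 0.23) are a description only. Of the 16, 5 were called (limma, adjusted p under 0.05), against 57.6% of all probe sets tested. That share, and the 2 below, include probe sets that passed the filter through a single sex. The sets are therefore unlike, and the shares cannot be compared directly. In 2 the male arrays were higher, against 23.6%: Shox2 1438042_at (0.43, adjusted p = 4.44e-05, in 22 of 25 strains) and Maf 1435828_at (0.30, adjusted p = 0.000848), both by limma. The second Shox2 probe set ran the other way (−0.08) and was not called (limma adjusted p = 0.205). In 3 the female arrays were higher, against 34.0%: Maf 1456060_at, where the male minus female difference was −0.25, Etv1 1450684_at (−0.33) and Maf 1444073_at (−0.40). The Maf probe sets thus pointed both ways. The probe set 1447945_at of Maf, which never rose above 4, had every female array (lowest 3.38) above every male array (highest 3.19). The arrays of each sex had their own lowest value. Sex and a separate normalization of the sexes, which no label states, cannot be told apart for these differences.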

How the data were processed

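The deposited table held a linear intensity for each probe set on each array. The submitters' processing notes name GCRMA and R 2.6.2 for the step by which the authors made it, and other settings are not given in the sources used here. Here log2(intensity + 1) was taken. After 64 control probe sets were left out, 34945 probe sets carried 1 gene symbol, 932 several and 9160 none, and 34741 matched RefSeq (GRCm38.p6). Probes match a reference sequence, and strain variants under them were not analysed here. Both strain and sex tests used limma 3.58.1 on 50 arrays, strain with sex as a term and sex with strain as a block. The factors' sex counts leave out Pou4f3 and Runx3, which were not above 4 in 2 arrays of each sex, a choice made after their values were seen. Adjusted p-values are Benjamini-Hochberg values over every feature tested. Relations between genes used limma on 25 strain means after each sex's mean was subtracted, and r and rho had two-sided permutation tests with 100000 resamples. Scripts were tested on simulated data. The number of arrays limits the precision.

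The members and all gene lists were chosen with earlier results of these data known. All probe sets of the 9 genes were named, for each factor the 3 genes with the highest and the 2 with the lowest r, and from each list the called genes or the 2 with the largest r. A leading probe set has 1 symbol, except for Etv1, whose probe sets all have 2. The alternatives were another pseudocount, another filter or none, quantile normalization, no sex term, leaving out each array or strain, SM/J with PL/J, or the 2 arrays of highest Gapdh imbalance, subtracting the neuron mean, another probe set of the gene, and arrays of 1 sex. The neuron mean was that of the 10 general neuron genes: Tubb3, Uchl1, Rbfox3, Snap25, Stmn2, Prph, Nefl, Nefm, Syt1 and Elavl4. Among them are Prph, the marker called with Maf, and Nefm, which is also in the touch list.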

Additional observations from a re-analysis of the deposited data

How the results depend on the processing

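Without the sex term (no replicate block), 2752 probe sets and 5 of the 18 of the factors were called for strain, against 5475 and 10 with it. Pou4f3 (range 0.978, adjusted p = 1), Shox2 (1.586, adjusted p = 0.325) and Maf (1.007, adjusted p = 0.292) lost their call there, by limma. Each strain's male and female array were paired by strain and not by a replicate number. With a pseudocount of 16, 3492 pairs of probe set and strain were called against 6335, 5 of the factors' 15 calls remained, and the Pou4f3 range was 0.451. For sex, 23777 probe sets were called with no filter and 7519 with a filter of log2 6, against 12779, and 4 of the factors' probe sets in the latter against 7, Pou4f3 and Runx3 counted. Without the 2 arrays of highest Gapdh imbalance the Pou4f1 range was 1.976 and called, and the Runx1 1422865_at difference of BTBT T+tf/J was 0.092, with its sign turned. Less the neuron mean, the Pou4f1 range was 2.017 and called, the male to female r of Pou4f3 was 0.433 and no longer called, and that of Maf was 0.604 and called. Without the 2 strains farthest from the median, 2349 probe sets agreed between the sexes against 3786, and Shox2 (0.499) lost its call. With quantile normalization Pou4f3 had r = 0.498, no longer called.

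With another probe set of the gene, the range was 1.794 for Runx1 1422865_at, 0.519 for Shox2 1420559_a_at and 1.792 for Maf 1444073_at, none called. The r with Pou4f1 turned its sign with 1429668_at for Foxo3 (−0.221), Esco1 (−0.211) and Kirrel (−0.287). It did so for Runx1 1422865_at with Ttc9b (−0.022), for Maf 1447849_s_at with Dhx9 (−0.046) and Dusp28 (0.059), and for Maf 1435828_at with Dhx9 (−0.070) and Dusp28 (0.103). The 184 pairs called over strains became 1706 in males alone, 2271 in females alone, 0 and 8 across the sexes, 306 without SM/J and PL/J and 1984 less the neuron mean. The causes were not tested.

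Leaving out 1 array, 4805 to 8304 probe sets were called for strain, with 8304 without the male P/J array, and 7 to 12 of the factors' probe sets. The range of Pou4f1 ran from 1.811 to 2.464, that of Pou4f3 from 0.915 to 1.178 and that of Maf from 0.821 to 1.204. The Runx1 1422865_at difference of BTBT T+tf/J ran from −2.239 to 0.129. Leaving out 1 strain, the male to female r ran from 0.440 to 0.594 for Pou4f3, 0.453 to 0.619 for Shox2 and 0.372 to 0.563 for Maf, and the called pairs from 30 to 389. Genes called for Pou4f1 ran from 7 to 340, the latter without 129S1/Sv1mJ. The ranges of Isl1, Runx1 1440878_at and Shox2 kept their call in all 50 fits that left out 1 array.

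Each strain rests on 2 pools, 1 of each sex, so that a strain's own spread was not measured. Levels of Pou4f3 and Runx3 lay at the edge of background, where differences carry little information.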
